A study of Homo sapiens with 3 samples.

Results

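Collagen genes were examined in RNA sequencing libraries of MDA-MB-231, a cell line derived from a human triple-negative breast cancer. Members were all protein-coding genes whose GENCODE 29 symbol is COL followed by a digit. This pattern matched 45 of the 48162 genes in the files, of which 44 encode collagen chains. The remaining match, COL4A3BP, encodes a ceramide transfer protein and was left out of the collagen counts. Of the 44 collagen genes 19 reached a mean of 1 FPKM (fragments scaled to transcript length and library size) over the 3 libraries. The series compared a FoxO3 depletion (library title sF_3), a co-depletion of Geminin and FoxO3 (sG_sF_3) and a control (Co), with 1 library per group. All cells, those of the control included, were grown with 10% serum, exposed to lentivirus for 24 h and collected 72 h after a medium change. The sources used here do not give the depleting sequences, the control's vector or the meaning of the number in both depleted titles. A single cell line was used.

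Collagens are secreted or membrane-bound proteins that fold as trimers, wound from chains with long repeats of glycine followed by a pair of variable residues. Fibrillar types (I, II, III, V, XI and others) form cables, type IV forms the net of basement membranes, type VI forms beaded filaments, and FACIT types decorate fibrils. Folding needs hydroxylation of proline and lysine in the endoplasmic reticulum and the chaperone encoded by SERPINH1. Breast carcinoma cells meet collagen made mainly by stromal fibroblasts, but they also transcribe collagen genes of their own.

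The FPKM values rest on recovered totals of 10760613 reads in the FoxO3 depletion, 12267332 in the co-depletion and 14507410 in the control. FOXO3 stood at 2.79 FPKM in the FoxO3 depletion, 2.94 in the co-depletion and 12.2 in the control, and GMNN, the Geminin gene, at 112.2, 37.0 and 112.3. All 7 markers listed as high in this line reached 1 FPKM, among them VIM at 607.3, 574.3 and 593.2 FPKM, while SPARC lay close to that floor. Of 6 markers listed as low in this line, 2 reached a mean of 1 FPKM. They were ERBB2, the growth factor receptor HER2, at 41.6, 46.8 and 38.0 FPKM, and the epithelial marker EPCAM at 9.80, 8.95 and 13.7, while the hormone receptor genes ESR1 and PGR were at 0.12 FPKM or less in each library. The epithelial genes CDH1 and KRT5 were at 1.02, 0.58 and 0.42 FPKM and at 0.38, 0 and 0.07. Of 11 fibroblast markers other than collagens 4 reached a mean of 1 FPKM. Their summed level, most of it S100A4, was 1015 FPKM in the FoxO3 depletion, 1036 in the co-depletion and 931 in the control. FAP and POSTN were listed at 0 in all 3 libraries, and PDGFRA, THY1, DCN and PDPN at 0 in both depleted libraries. In the control 1 read was recovered for each of these last genes (0.15, 0.11, 0.06 and 0.05 FPKM). Recovered reads can be a whole fraction of the true ones, but at these levels no difference can be read. Of 10 leukocyte and 6 measured endothelial markers, 3 and 1 reached a mean of 1 FPKM. The leukocyte markers were LAPTM5 at 59.3, 56.9 and 66.5 FPKM, CD14 at 8.09, 8.59 and 6.76, and CSF1R at 1.48, 1.62 and 3.75. The endothelial marker was KDR at 6.97, 5.75 and 5.44 FPKM.

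Collagen transcripts summed to 952 FPKM in the FoxO3 depletion, 1008 in the co-depletion and 825 in the control, which is 0.132%, 0.140% and 0.118% of all FPKM. COL5A1 alone supplied most of that difference. Without it the sums were 718, 750 and 693 FPKM. With 1 library per group there is no replicate check and no p-value, and every difference is one between libraries. In bulk RNA, fewer cells that express a gene and less RNA per cell cannot be told apart.

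**Figure D1:**
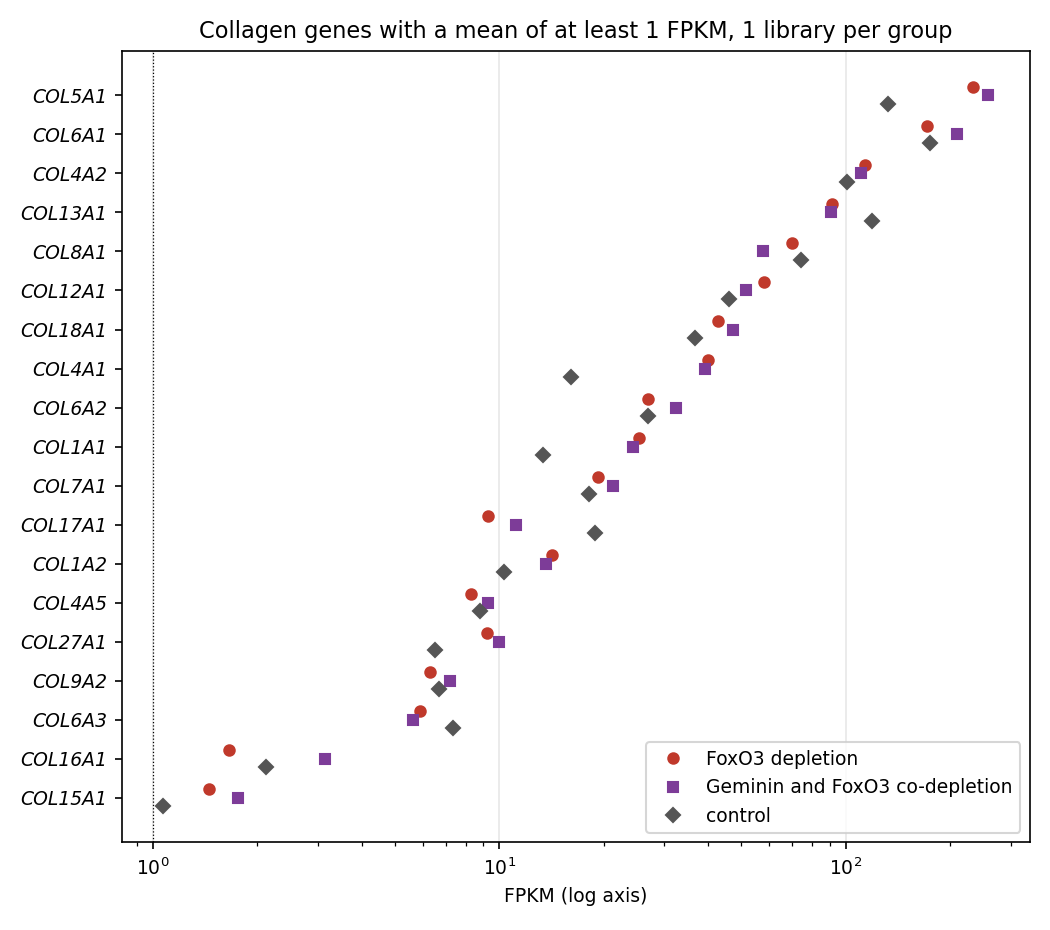
FPKM (horizontal log axis) of the 19 collagen genes with a mean of at least 1 FPKM, ordered by that mean, in the FoxO3 depletion (circles), the co-depletion (squares) and the control (diamonds). Points of a gene lie close together for most genes, and the control stands to the left for COL5A1, COL4A1 and COL1A1 and to the right for COL17A1.

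A gene was called higher or lower at 1.5-fold on the FPKM + 1 scale, which understates differences of low genes. Of the 19 collagens, 3 were called higher and 1 lower in the FoxO3 depletion against the control (15.8% and 5.26%). Over all 12649 analysed genes the same rule called 4.0% higher and 16.7% lower. In the co-depletion against the control, again 3 collagens were called higher and 1 lower, where 4.02% of all genes were higher and 12.3% lower. The higher genes were COL5A1, COL4A1 and COL1A1 in both comparisons, and the lower gene was COL17A1. Both comparisons use the same control library, so they are not separate evidence. The median log2 ratio of the 19 collagens was 0.09 (range -0.96 to 1.26) for FoxO3 depletion and 0.25 (-0.70 to 1.23) for co-depletion, against -0.07 and -0.06 over all analysed genes. Ratios lay above the control for 10 of the 19 collagens after FoxO3 depletion, where 42.9% of all genes did, and for 15 after co-depletion, where 43.7% did.

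**Figure D2:**
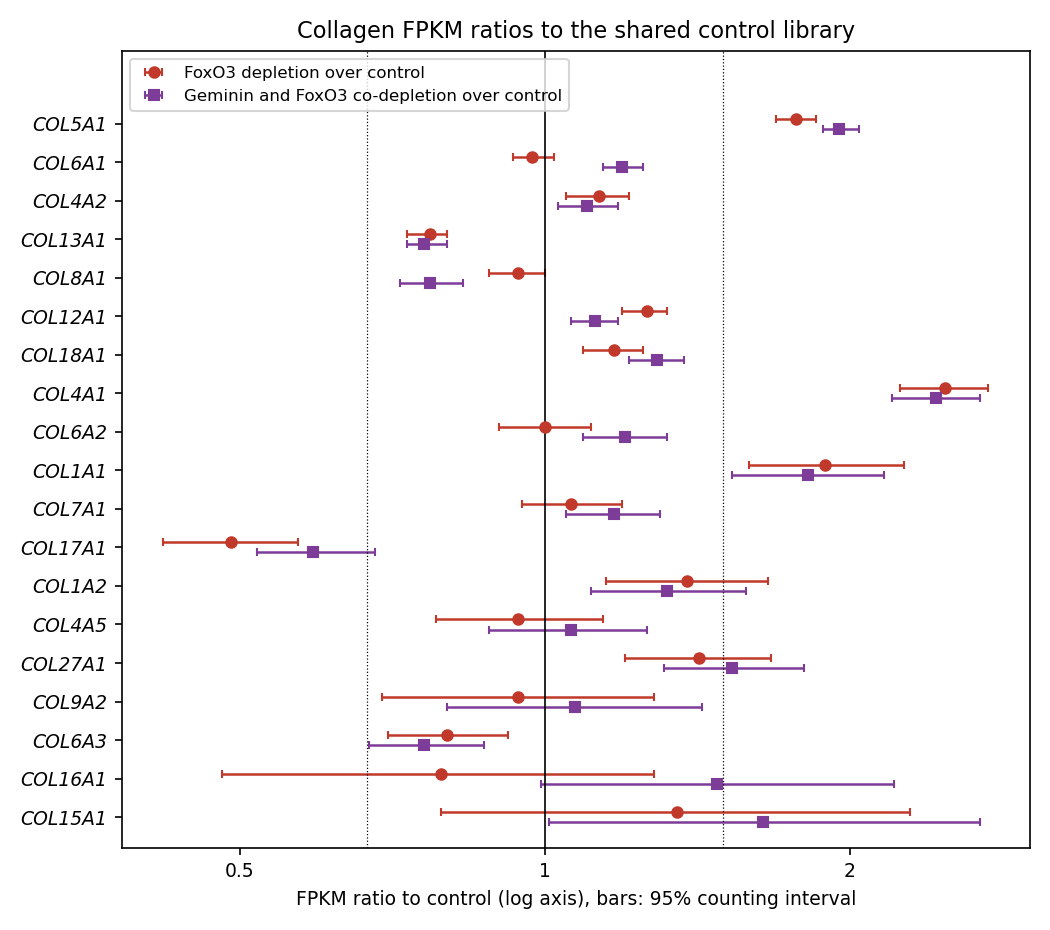
FPKM ratio to the control (horizontal log axis) for the FoxO3 depletion (circles) and the co-depletion (squares), with bars for the 95% counting interval, the solid line at 1 and dotted lines at 1.5-fold. COL4A1 has the highest ratios, 2.48 and 2.43, and COL17A1 the lowest, 0.49 and 0.59.

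Among fibrillar collagens 4 of 11 genes reached a mean of 1 FPKM, and all 4 were higher in both depleted libraries than in the control, 2 of them past 1.5-fold. Their class summed to 284 FPKM in the FoxO3 depletion, 307 in the co-depletion and 163 in the control. COL5A1 (ENSG00000130635, chr9:134641774-134844843, plus strand, GRCh38) encodes the alpha 1 chain of type V, which sits inside type I fibrils and limits their width. It was at 234.0 FPKM in the FoxO3 depletion, 258.8 in the co-depletion and 132.4 in the control. The FPKM ratio to the control was 1.77 (95% counting interval 1.69 to 1.85) for FoxO3 depletion and 1.95 (1.88 to 2.04) for co-depletion. COL5A1 thus had the highest FPKM of any collagen in both depleted libraries, whereas in the control COL6A1 stood above it. This order depends on the lengths behind FPKM, 1946 bases for COL5A1 and 1560 for COL6A1. In the FoxO3 depletion, the co-depletion and the control COL6A1 had 2878, 4018 and 3981 reads over 3084 coding bases. COL5A1 had 4901, 6177 and 3738 over 5514, fewer per coding base in each library. These are recovered reads, which can be a whole fraction of the true ones, so this order is uncertain as well. The partner of COL5A1 in the common type V trimer, COL5A2, was at 0.85, 0.36 and 0.36 FPKM, on 35, 17 and 20 reads. COL5A3 was listed at 0 throughout. Per coding base, COL5A2 had 0.00876, 0.00337 and 0.00656 of the reads of COL5A1.

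COL1A1 (ENSG00000108821, chr17:50183289-50201632, minus strand, GRCh38) and COL1A2 encode the chains of type I, the main collagen of bone, tendon and skin. COL1A1 was at 25.3 FPKM in the FoxO3 depletion, 24.3 in the co-depletion and 13.4 in the control. The ratios to the control were 1.89 (1.59 to 2.26) and 1.82 (1.53 to 2.16). COL1A2 was at 14.2, 13.6 and 10.3 FPKM, which is 1.38 times (1.15 to 1.66) and 1.32 times (1.11 to 1.58) the control and under the size rule. The type I trimer holds more alpha 1 than alpha 2 chains. Per coding base, COL1A1 had 1.21 (1.02 to 1.44) times the reads of COL1A2 in the FoxO3 depletion, 1.22 (1.03 to 1.43) in the co-depletion and 0.885 (0.734 to 1.07) in the control. By FPKM the same ratios were 1.78, 1.78 and 1.30, so whether COL1A1 exceeded COL1A2 in the control depends on the length used. COL27A1, a fibrillar chain of cartilage, was at 9.24, 10.0 and 6.53 FPKM, with ratios of 1.42 (1.2 to 1.67) and 1.53 (1.31 to 1.80). The co-depletion value falls just short of the size rule on the FPKM + 1 scale, at a log2 ratio of 0.55. COL3A1, which accompanies type I in fibroblasts, was at 0.13, 0.04 and 0.16 FPKM, on 3, 1 and 5 reads. PDGFRB, a receptor of fibroblasts and pericytes and the only member of the fibroblast list past 1.5-fold, was at 15, 14.4 and 6.24 FPKM. Its part, or that of other cells, in the COL1A1 difference was not tested.

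Type IV collagen is encoded by head-to-head gene pairs that share a start region, and the COL4A1 and COL4A2 pair makes the most widespread form. COL4A1 (ENSG00000187498, chr13:110148963-110307233, minus strand, GRCh38) was at 40.1 FPKM in the FoxO3 depletion, 39.3 in the co-depletion and 16.1 in the control. These are 2.48 (2.24 to 2.74) and 2.43 (2.2 to 2.69) times the control, the highest ratios of the 19 collagens. Among all 12649 analysed genes, the log2 ratios of COL4A1 ranked 37 from the top after FoxO3 depletion and 36 after co-depletion. COL4A2 (ENSG00000134871, chr13:110305812-110513209, plus strand) was at 113.9, 110.8 and 100.9 FPKM, or 1.13 (1.05 to 1.21) and 1.10 (1.03 to 1.18) times the control. Both genes were thus above the control, COL4A1 by more than COL4A2, and their counting intervals do not overlap. COL4A1, COL4A2, COL4A5 and the low members of this class summed to 163 FPKM with FoxO3 depletion, 160 with co-depletion and 127 in the control.

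The start region of this pair is shown because both genes leave it in opposite directions. In RefSeq (GRCh38.p14) the COL4A1 start is at base 110307157 and the COL4A2 start at base 110307284 of chromosome 13, which is 127 bases apart. The window chr13:110307034-110307333, read on the plus strand, runs from 250 bases before the COL4A2 start. The COL4A1 start lies at base 124 of it, on the other strand. Capitals mark a CCAAT box and a GC box (GGGCGG), both between the starts.
COL4A1 and COL4A2 start region: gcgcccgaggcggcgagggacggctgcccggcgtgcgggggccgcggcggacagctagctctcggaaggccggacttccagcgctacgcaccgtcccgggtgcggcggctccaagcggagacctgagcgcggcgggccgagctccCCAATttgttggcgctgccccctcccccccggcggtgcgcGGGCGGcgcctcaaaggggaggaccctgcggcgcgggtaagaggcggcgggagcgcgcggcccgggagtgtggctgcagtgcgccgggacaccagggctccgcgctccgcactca

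Within each library the balance of these chains, which join in a trimer of unequal parts with alpha 1 in excess, differed with the group. COL4A1 had 0.772 (0.713 to 0.835) of the reads per coding base of COL4A2 with FoxO3 depletion and 0.778 (0.722 to 0.838) with co-depletion. In the control it had 0.351 (0.32 to 0.386). The FPKM ratios of the same chains were 0.352, 0.354 and 0.16, lower because the lengths behind the FPKM values are 2561 bases for COL4A1 and 1197 for COL4A2. Recovered reads can be a whole fraction of the true ones, so the size of a ratio between chains is uncertain, whereas its difference between libraries is not affected. Their GENCODE 29 gene bodies overlap by 1422 bases on opposite strands, and reads in that stretch cannot be assigned without strand. COL4A5, mutated in Alport syndrome, was at 8.27, 9.25 and 8.77 FPKM, with both intervals including 1. Its head-to-head neighbour COL4A6 was at 0.36, 0.32 and 0.48 FPKM. The pair COL4A3 and COL4A4, the chains of the kidney filter, stayed at or under 0.25 FPKM.

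**Figure D3:**
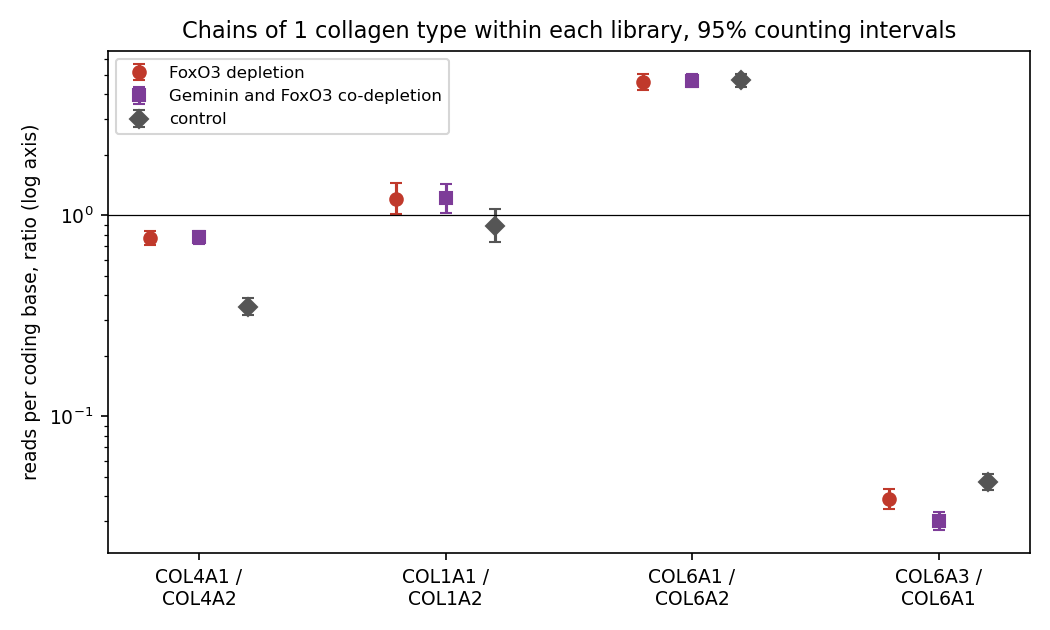
Ratio of recovered reads per coding base (vertical log axis) between chains of a collagen type in the FoxO3 depletion (circles), the co-depletion (squares) and the control (diamonds), with 95% counting intervals. Both depleted libraries stand above the control for COL4A1 over COL4A2 (0.772 and 0.778 against 0.351 in the control), and the 3 libraries coincide for COL6A1 over COL6A2.

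Type VI collagen forms beaded filaments around cells, and its 3 main chains did not move together. COL6A1 was at 171.4 FPKM in the FoxO3 depletion, 210.0 in the co-depletion and 175.9 in the control. COL6A2 was at 26.8, 32.4 and 26.9 FPKM. Both were thus level with the control in the FoxO3 depletion, at ratios of 0.97 (0.93 to 1.02) and 1.0 (0.90 to 1.11). In the co-depletion they stood at 1.19 (1.14 to 1.25) and 1.2 (1.09 to 1.32). COL6A1 kept 4.60, 4.66 and 4.70 times the reads per coding base of COL6A2 in the FoxO3 depletion, the co-depletion and the control. COL6A3, the large chain that completes the trimer, was lower in both depleted libraries, at 5.91 and 5.62 FPKM against 7.36 in the control. Its ratios were 0.80 (0.70 to 0.92) and 0.76 (0.67 to 0.87), under the size rule. Per coding base COL6A3 had 0.0389 and 0.0302 of the reads of COL6A1 in the depleted libraries and 0.0472 in the control. COL6A6 had 2 reads or fewer in each library and COL6A5 was listed at 0.

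Of the 4 transmembrane collagens 2 reached a mean of 1 FPKM, and 1 of them, COL17A1, was called lower in both comparisons with the control. The class, of which COL13A1 is the largest share, summed to 101 FPKM in the FoxO3 depletion, 102 in the co-depletion and 138 in the control. COL17A1 (ENSG00000065618, chr10:104031286-104085957, minus strand, GRCh38) encodes the hemidesmosome protein BP180, which ties basal epithelial cells to the basement membrane. It was at 9.26 FPKM in the FoxO3 depletion, 11.2 in the co-depletion and 18.9 in the control, or 0.49 (0.42 to 0.57) and 0.59 (0.52 to 0.68) of the control. COL13A1, a transmembrane collagen of cell adhesions and the neuromuscular junction, was at 91.3, 90.9 and 119.3 FPKM. Its ratios of 0.77 (0.73 to 0.80) and 0.76 (0.73 to 0.80) lay below 1 but under the size rule. COL23A1 and COL25A1 had at most 2 reads in any library.

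The start windows of the called genes with a RefSeq sequence differ in base composition, and those of COL5A1, called higher, and COL17A1, called lower, are shown for that contrast. The COL5A1 window chr9:134641553-134641852 (plus strand, GRCh38.p14) holds 74.0% G and C, and the COL17A1 window chr10:104085831-104086130 (minus strand, GRCh38.p14) holds 40.7%. The window of COL4A2, which was not called, holds 77.7%. Whether base composition of the start goes with the direction of a difference was not tested. Capitals mark GC boxes in COL5A1, read on the opposite strand, and a CCAAT box in COL17A1, also on the opposite strand.
COL5A1 start region: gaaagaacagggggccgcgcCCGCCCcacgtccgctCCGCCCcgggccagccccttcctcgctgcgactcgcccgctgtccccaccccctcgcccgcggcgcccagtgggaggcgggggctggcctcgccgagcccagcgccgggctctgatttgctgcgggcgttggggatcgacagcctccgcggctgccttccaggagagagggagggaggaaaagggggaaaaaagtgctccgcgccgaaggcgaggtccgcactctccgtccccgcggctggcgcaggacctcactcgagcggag
COL17A1 start region: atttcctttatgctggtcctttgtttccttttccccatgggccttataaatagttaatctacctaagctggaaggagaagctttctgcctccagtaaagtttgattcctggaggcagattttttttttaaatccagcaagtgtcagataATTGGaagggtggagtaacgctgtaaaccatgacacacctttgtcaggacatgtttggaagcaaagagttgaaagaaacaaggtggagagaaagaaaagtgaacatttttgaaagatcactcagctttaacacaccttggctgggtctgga

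RefSeq windows of 300 bases, from 250 before to 50 after a start, were found for 15 of the 19 collagens, and not for COL1A1, COL1A2, COL6A1 and COL8A1. The FOXO core GTAAACA, searched on both strands, was in 0 of their 17 windows, where 3.42% of 35116 windows of all genes hold it. The TEAD core GGAATG was in 1 window, that of COL12A1 (14.0% of all windows), and the AP-1 letters TGANTCA in 0 (7.71%). GC boxes were in 13 of the 17 windows (45.0% of all) and the CCAAT box in 4 (34.6%). These motifs were searched separately and may overlap. The 17 windows belong to 15 genes, and those of COL4A1 and COL4A2 overlap by 226 bases. The CCAAT box and GC box between their starts are therefore counted for both. The counts describe these windows only.

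FACIT collagens bind to the surface of fibrils. COL12A1, found in tendon and ligament, was at 58.0 FPKM in the FoxO3 depletion, 51.7 in the co-depletion and 46.2 in the control. Its ratios were 1.26 (1.19 to 1.32) and 1.12 (1.06 to 1.18). COL9A2 of cartilage was at 6.29, 7.18 and 6.71 FPKM, with both intervals including 1. COL16A1 was the lowest but one of the 19 genes, at 1.66, 3.13 and 2.12 FPKM on 28, 60 and 48 reads, and its intervals against the control also included 1.

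COL8A1, a network collagen of vessel walls and the cornea, was at 69.9 FPKM in the FoxO3 depletion, 57.6 in the co-depletion and 74.5 in the control. The co-depletion value was 0.77 (0.72 to 0.83) of the control and the FoxO3-depletion value 0.94 (0.88 to 1.0). COL18A1, a basement membrane collagen whose end fragment is endostatin, was at 42.9, 47.3 and 36.7 FPKM, or 1.17 (1.09 to 1.25) and 1.29 (1.21 to 1.37) times the control. COL15A1, its relative, was at 1.45, 1.76 and 1.07 FPKM on 31, 43 and 31 reads. COL7A1, which forms the anchoring fibrils of skin, was at 19.3, 21.3 and 18.2 FPKM. None of these 4 genes passed the size rule in either comparison with the control.

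The other 25 collagen genes had a mean under 1 FPKM, and none of their single values exceeded 0.91, that of COL9A3 in the control. COL2A1, COL5A3 and COL6A5 were listed at 0 in all 3 libraries, 11 were above 0 in all 3, and 11 were listed at 0 in 1 or 2. Of the 25, 19 had fewer than 10 reads over the 3 libraries, COL3A1 among them, so no difference of these genes could be read at this depth. Those with 10 or more reads were COL9A3, COL5A2, COL4A6, COL8A2, COL4A4 and COL11A2. COL9A3 was at 0.28 FPKM in the FoxO3 depletion, 0.58 in the co-depletion and 0.91 in the control, on 3, 7 and 13 reads.

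Geminin depletion was added to FoxO3 depletion in the third comparison, of the co-depletion against the FoxO3 depletion. Of the 19 collagens 1 was called higher and 0 lower, where 1.35% of all genes were higher and 0.617% lower. The called gene was COL16A1, with a ratio of 1.88 (1.18 to 3.06). Its log2 ratio of 0.63 became 0.57 once adjusted for GC content, which is under the rule. COL6A1 and COL6A2 were at 1.22 times (1.17 to 1.29) and 1.21 times (1.09 to 1.34) the FoxO3 depletion, and COL5A1 at 1.11 times (1.06 to 1.15). COL8A1 was lower at 0.82 (0.77 to 0.89) and COL12A1 at 0.89 (0.85 to 0.94). COL4A1 and COL1A1 had ratios of 0.98 (0.90 to 1.06) and 0.96 (0.82 to 1.12). The median log2 ratio of the collagens was 0.13, against 0.03 for all analysed genes. Collagens with higher GC content had higher ratios here, with Spearman's rho of 0.58 over the 19 genes, which share the same 2 libraries, against -0.07 over all genes. This was the largest rho of the collagens with GC content, length or level in any comparison. GC adjustment took COL18A1 (66.9% GC) from 0.14 to 0.07 and COL12A1 (46.6%) from -0.16 to -0.13. The median over all genes was thus also higher at 66.9% than at 46.6% GC.

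Ratios in these libraries vary with GC content across genes (Spearman's rho 0.41 for FoxO3 depletion and 0.44 for co-depletion, each against the control, over 12649 genes). Over the 19 collagens, which span a narrower GC range, the same rho was -0.02 and 0.25. GC content of their transcripts ran from 46.6% to 66.9% with a median of 59.4%, where the median gene stood at 49.0%. Subtracting the running median over GC content left the same 3 higher and 1 lower collagens in both comparisons with the control, and collagen medians of 0.08 and 0.18. The adjusted log2 ratios in the FoxO3 depletion were 1.21 for COL4A1, 0.79 for COL5A1, 0.81 for COL1A1 and -0.99 for COL17A1. In the co-depletion they were 1.18, 0.85, 0.69 and -0.75. Without adjustment the values were 1.26, 0.82, 0.87 and -0.96, and 1.23, 0.96, 0.82 and -0.70, so these genes moved little. Genes of low GC content moved more, such as PLOD2 (36.1% GC), from 0.32 to 1.11 in the FoxO3 depletion. Unchanged collagen calls are therefore a weak check, and whether GC content affects the collagen ratios was not tested.

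**Figure D4:**
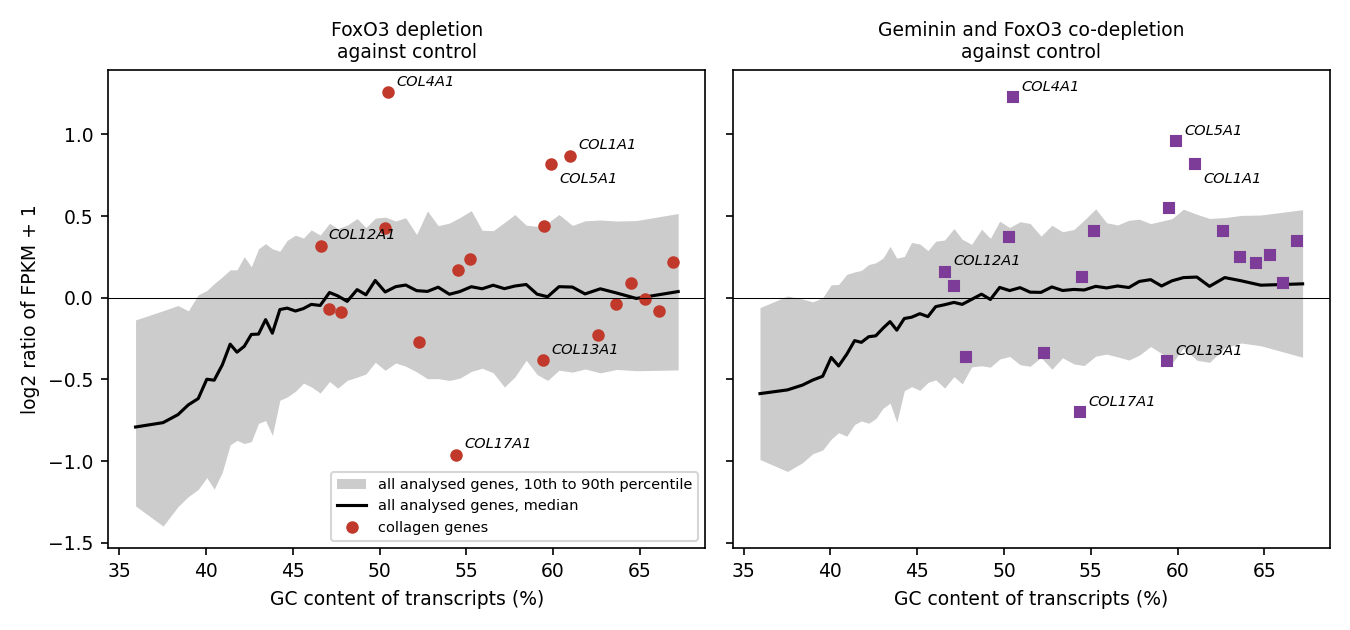
Log2 ratio of FPKM + 1 to the control (vertical axis) against GC content of transcripts in percent (horizontal axis) for collagen genes (points), with the median (line) and the 10th to 90th percentiles (grey band) of all analysed genes. COL4A1, COL5A1 and COL1A1 lie above the band and COL17A1 lies lowest in both panels.

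Genes that modify, carry, bind or cut collagen were described by lists of their roles. Counts of called genes in each list are to be read beside the shares over all analysed genes, which were 4.0% higher and 16.7% lower for FoxO3 depletion and 4.02% higher and 12.3% lower for co-depletion. Of 13 measured genes for hydroxylation and glycosylation, 2 were called higher and 0 lower in each comparison with the control, with medians of 0.32 for FoxO3 depletion and 0.41 for co-depletion. The called genes were P3H2, a prolyl 3-hydroxylase that acts on type IV collagen, at 112.1 FPKM in the FoxO3 depletion, 99.9 in the co-depletion and 61.4 in the control, and P4HA2, a catalytic subunit of prolyl 4-hydroxylase, at 48.2, 52.9 and 29.8. Another catalytic subunit, P4HA1, was at 34.7, 33.8 and 30.4 FPKM, and the shared subunit P4HB at 702.1, 737.5 and 546.6. PLOD2, the lysyl hydroxylase of the collagen ends, was at 67.8, 80.1 and 54.0 FPKM. Its log2 ratios of 0.32 and 0.56 became 1.11 and 1.14 after GC adjustment, and those of P4HA1, 0.18 and 0.15, became 0.68 and 0.54. With PLOD2 in both comparisons and P4HA1 in the FoxO3 depletion, the adjusted list had 4 and 3 called genes.

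SERPINH1, the collagen-specific chaperone HSP47, was at 449.9 FPKM in the FoxO3 depletion, 411.8 in the co-depletion and 224.8 in the control. Its ratio in the FoxO3 depletion was 2.0 (1.92 to 2.08). It was the only one of 12 measured chaperone and secretion genes called higher in either comparison with the control. MIA3, also called TANGO1, which loads procollagen into transport carriers, was called lower in the FoxO3 depletion, at 21.5 FPKM against 34.7, but its log2 ratio of -0.66 became -0.43 after GC adjustment. The list medians were 0.09 and 0.07, and 0.19 and 0.25 after GC adjustment. The adjustment gave 2 higher and 0 lower genes in the FoxO3 depletion, the added one being FKBP14.

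Of 4 measured propeptide-processing genes, PCOLCE, which enhances removal of the C-terminal propeptide, was called lower in the FoxO3 depletion, at 3.09 FPKM, with 5.75 in the co-depletion and 6.70 in the control. The lysyl oxidases that cross-link collagen were split. LOXL2, which acts on type IV collagen, was at 562.9 FPKM in the FoxO3 depletion, 601.2 in the co-depletion and 389.2 in the control, and was called higher in the co-depletion, at a log2 ratio of 0.63 that GC adjustment brought to 0.52, under the rule. LOXL1 was called lower in both, at 6.14 and 5.55 FPKM against 9.91 in the control. LOX was at 24.1, 29.2 and 25.2 FPKM.

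Fibril and matrix partners reached a mean of 1 FPKM in 9 of 24 cases. The microfibril genes FBN1 and MFAP2 were called higher in both comparisons with the control, FBN1 at 40.2, 38.3 and 20.6 FPKM and MFAP2 at 18.7, 17.1 and 9.11 in the FoxO3 depletion, the co-depletion and the control. TNC, encoding tenascin-C, was called lower in both, at 16.5, 19.0 and 33.9 FPKM, and TNXB in the FoxO3 depletion, at 1.15 against 2.34. Fibronectin (FN1) was at 102.3, 123.1 and 116.0 FPKM, and SPARC, a collagen-binding protein, at 1.01, 1.05 and 1.09. Of 12 measured basement membrane partners, 1 was called lower and 0 higher in each comparison with the control. Over all genes 16.7% and 12.3% were lower. With a pseudocount of 0.1, 3 partners were lower in the FoxO3 depletion, and 2 lower and 1 higher in the co-depletion. The gene called on the FPKM + 1 scale was LAMA3, which encodes a laminin chain of epithelia. It was at 14.7 FPKM in the FoxO3 depletion, 16.6 in the co-depletion and 28.2 in the control. LAMC1, the common laminin gamma chain, was at 299.5, 297.9 and 238.6 FPKM.

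Collagen receptors had the lowest medians of the 8 lists, -0.64 for FoxO3 depletion and -0.58 for co-depletion, against -0.07 and -0.06 over all genes. After GC adjustment the receptor medians were -0.37 and -0.47. Of 9 measured members 5 were called lower in the FoxO3 depletion, where 16.7% of all genes were, 4 in the co-depletion, where 12.3% were, and 0 higher in either. With GC adjustment 3 were lower in each. ITGA2, the alpha subunit of the main collagen integrin of epithelial cells, was at 58.0 FPKM in the FoxO3 depletion, 65.4 in the co-depletion and 122.7 in the control. ADGRG1, an adhesion receptor that binds type III collagen, was at 41.1, 45.8 and 115.7 FPKM. These and ITGA10, at 1.81, 2.30 and 5.48 FPKM, remained lower after GC adjustment in both comparisons. ITGA10 rests on few reads, 11, 16 and 45, with counting intervals of 0.15 to 0.65 and 0.22 to 0.76. ITGB1, the shared beta subunit, was at 846.3, 1033 and 1322 FPKM and was called lower in the FoxO3 depletion, at -0.64 on the log2 scale, a value that GC adjustment brought to -0.21. ITGA1 in the FoxO3 depletion, at 2.95 FPKM against 7.96, and ADGRG6 in the co-depletion, at 19.2 against 33.3, also lost their calls, at adjusted log2 ratios of -0.44 and -0.47. DDR1, a receptor kinase for collagen, was at 58.2, 66.3 and 69.8 FPKM. MRC2, an endocytic collagen receptor named here after its values were seen, lay above the control, at 33.5, 39.4 and 26.2 FPKM, with ratios of 1.28 (1.16 to 1.41) and 1.5 (1.37 to 1.65).

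Of 7 measured proteases that cut collagen, 2 were called lower in each comparison with the control and 0 higher, beside 16.7% and 12.3% of all genes lower. After GC adjustment 1 was lower in each. MMP1, the interstitial collagenase, was at 14.2 FPKM in the FoxO3 depletion, 16.4 in the co-depletion and 32.0 in the control. MMP16 was at 0.60, 0.71 and 2.23 FPKM, and its log2 ratios of -1.01 and -0.92 became -0.28 and -0.37 after GC adjustment. The membrane-bound collagenase MMP14, named after its values were seen, was not called, and its log2 ratios were -0.20 and -0.11.

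**Figure D5:**
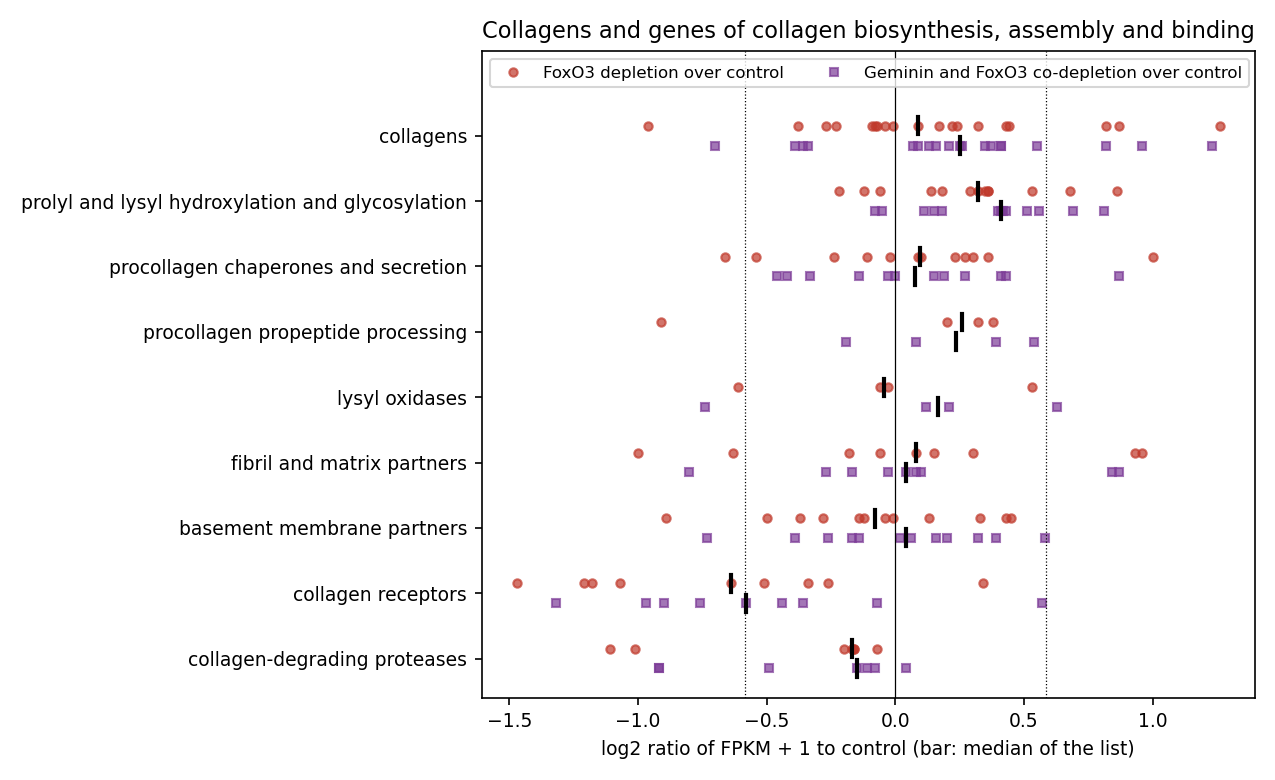
Log2 ratio of FPKM + 1 to the control (horizontal axis) for each measured gene of the collagens and of 8 lists of collagen partners, in the FoxO3 depletion (circles) and the co-depletion (squares), with black bars at the list medians and dotted lines at 1.5-fold. The collagen receptors have medians of -0.64 and -0.58, and the hydroxylation and glycosylation list 0.32 and 0.41.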

How the data were processed

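Total RNA (3 ug per library) was sequenced on an Illumina instrument from 3 samples, and groups were taken from the titles read with the series' design text. The authors deposited FPKM per Ensembl gene, 1 file per library. TopHat2 2.0.9 is named in the submitters' processing notes. The sources used here do not give the read counter, FPKM tool, annotation, genome build or strand setting. Gene names, GC content, gene positions and coding lengths came from GENCODE 29 (GRCh38), which matched 45342 of 48162 IDs.

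Library totals were recovered from FPKM and the lengths of genes with a single transcript. Reads per gene were the smallest whole numbers given by a whole length of up to 20000 bases. They were found for 20589 of 20591 genes above 0 in at least 2 libraries and for 0 of 2000 random value sets. A number found this way may be a whole fraction of the true one, which widens intervals and can alter reads per coding base. The lengths found lay between 17.1% and 75.4% of the longest GENCODE transcript for the 19 collagens with a mean of at least 1 FPKM, so levels of different genes depend on them, and ratios between libraries do not.

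Log2 ratios used FPKM + 1. Analysed genes had a name and a mean of at least 1 FPKM, and calls were by size at 1.5-fold. Exact 95% Clopper-Pearson intervals cover counting error only, compare libraries and not conditions, and leave out the spread between cultures. GC adjustment subtracted the running median ratio over 50 bins. The calculations were tested on simulated data and run in Python 3.11.15 with pandas 2.3.3 and scipy 1.17.1. Members, lists and tests were chosen with earlier results of these data known. Named genes were all collagens above the minimum, partner genes past 1.5-fold against the control, at most 8 per list, and a fixed set of well-known partners.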

Additional observations from a re-analysis of the deposited data

How the results depend on the processing

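No paired analysis was possible because each group has 1 library. Limits are the absence of replicates and the low reads of COL16A1, COL15A1 and the 25 collagens under 1 FPKM. Of the log2 ratios of single collagens under other settings, 551 moved by no more than their counting error and 13 by more, and none that was called changed sign. List counts stayed within 1.5 times in 502 cases and moved in 74, and list medians moved by under 0.1 in 216 and by more in 24. Of sums and chain ratios 15 moved and 6 did not, when COL5A1 was left out or coding lengths were used. Of collagen medians 27 moved by under 0.1 and 3 by more. For the co-depletion against the control the median was 0.15 with a minimum of 20 reads and 0 with no minimum, and against the FoxO3 depletion it was 0 with no minimum. With no minimum all 44 collagens were counted, with the same calls. With a pseudocount of 0.1 the co-depletion had 5 higher collagens against the control, adding COL15A1 and COL27A1, and rescaling by the median ratio added COL27A1. At 2-fold on the FPKM + 1 scale, 1 collagen, COL4A1, was higher against the control in each depletion and 0 were lower, and at 3-fold 0 were higher and 0 lower. COL17A1, at an FPKM ratio of 0.49 in the FoxO3 depletion, just missed 2-fold on that scale, at a log2 ratio of -0.96. COL16A1, the single call of the co-depletion against the FoxO3 depletion, gave 0 calls at 2-fold, at 3-fold, with a minimum of 5 FPKM and after GC adjustment. A pseudocount of 0.5, rescaling to TPM, restriction to protein-coding genes, a minimum of 20 reads, adjustment for GC content and length, and counting COL4A3BP as a member (added after seeing the data) changed no collagen call. Chain ratios by reads per coding length from GENCODE 29 were also added after seeing the data, in place of protein lengths, which were not used here.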

Other observations

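COL4A3BP, whose symbol fits the pattern but whose product carries ceramide between membranes, was at 18.6 FPKM in the FoxO3 depletion, 22.2 in the co-depletion and 23.1 in the control. Antisense genes at collagen loci were barely detected. COL5A1-AS1 was at 0 FPKM in the FoxO3 depletion, 0.97 in the co-depletion and 0.21 in the control, on 0, 4 and 1 reads. COL18A1-AS1 had 4, 2 and 3 reads in the same order, and SLC19A1, which overlaps COL18A1 on the opposite strand, had 6, 8 and 17. P4HA3, another catalytic subunit of prolyl 4-hydroxylase, had 13 reads in the FoxO3 depletion, 8 in the co-depletion and 1 in the control. Its FPKM ratio in the FoxO3 depletion was 17.53, with a counting interval of 2.63 to 744.84. P4HA3 was singled out after its values were seen, and it lies under the minimum used for calls.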
